A study of Homo sapiens with 6 samples.

Results

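The clustered protocadherin genes PCDHA, PCDHB and PCDHG lie side by side on chromosome 5. The CTCF peaks described here were chosen by position among called peaks: each peak touching chr5:140150000-140910000 (hg19) in any of 3 lists was a member, and overlapping peaks were merged into regions. That a peak was called is therefore part of the choice, and the counts below are descriptions. This gave 33 regions of 60235 in all, to which D3 gave 32 of its 57935 peaks, E4 11 of 39434 and WT 19 of 38645. The study sequenced chromatin pulled down with a CTCF antibody from untreated HCT-116 cells, an established line from a human colon tumour. D3 and E4 are clones whose genotype is labelled as a CTCF mutation, with no statement in the labels of where the change lies, and WT are wild-type cells of the same line. Each population gave 1 CTCF library, and each mutant population is 1 clone, so no difference has a replicate check and no test was run. The 3 libraries made without antibody were not analysed here.

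Clustered protocadherins are cell adhesion proteins of the cadherin superfamily, best known from neurons, where each cell uses its own set of them as a surface identity. In the alpha and gamma clusters each gene has its own promoter and variable first exon, which is spliced to constant exons shared by the whole cluster, while beta genes are made of a variable exon alone. CTCF, the zinc-finger protein that anchors chromatin loops with cohesin, binds many of these promoters and links them to distant enhancers. The last genes of the alpha and gamma clusters are called C-type (PCDHAC1, PCDHAC2, PCDHGC3, PCDHGC4 and PCDHGC5), and their promoters are less like those of the other genes. Peak lists hold no expression, so whether any of these genes was transcribed, and the colon identity of the cells, could not be checked against markers.

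Promoter sequences are shown first because 28 of the 33 regions of the cluster lay near a gene start, by the wider window given further on. The share of the genome's regions that lie as near a gene start was not computed. Of the 53 genes, 47 matched a RefSeq promoter of 300 bases (GRCh38.p14, from 250 bases before the start to 50 after), all but PCDHA3, PCDHA13, PCDHB6, PCDHB11, PCDHGA12 and PCDHGC5. In 6 of them (PCDHA4, PCDHA5, PCDHA7, PCDHA10, PCDHB9 and PCDHB10) a run of 15 bases shared the letters CCACNNGNTGNCGCT, a pattern written down after these promoters had been read. Searched on both strands, it occurred in 9 of the 47 promoters (19.1%), against 0.0626% of all 35116 RefSeq promoters. Since the letters were read from 6 of the 9, the high share follows in part from that choice. With only CCA and the right-hand 9 letters GNNGNCGCT required, the same number of cluster promoters matched, against 0.604% of all. Matches fell in 7 of 13 alpha, 2 of 14 beta and 0 of 20 gamma promoters, each on the gene's own strand and between 92 and 35 bases before the start. In PCDHA1, PCDHA2, PCDHA4, PCDHA5, PCDHA7 and PCDHA8 the matching letters were identical. The 100 bases from position -120 to -21 are printed for promoters called in all 3 lists (PCDHA4, PCDHB9, PCDHB10, PCDHGA10, PCDHAC1), in both clones (PCDHA7), in D3 only (PCDHA10) and in none (PCDHA5, PCDHAC2, PCDHGC3), all on the + strand of GRCh38.p14. Capitals mark the long pattern, or, in PCDHAC1 and PCDHGC3, the shorter GNNGNCGCT, which every match of the long one contains. The stretches of PCDHGA10 and PCDHAC2 hold neither.
PCDHA4 (chr5:140806948-140807047): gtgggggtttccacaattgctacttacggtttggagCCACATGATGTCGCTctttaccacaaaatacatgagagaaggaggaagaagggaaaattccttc
PCDHA7 (chr5:140834149-140834248): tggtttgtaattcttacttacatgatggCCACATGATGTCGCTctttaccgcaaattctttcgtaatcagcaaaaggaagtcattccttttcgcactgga
PCDHA10 (chr5:140855777-140855876): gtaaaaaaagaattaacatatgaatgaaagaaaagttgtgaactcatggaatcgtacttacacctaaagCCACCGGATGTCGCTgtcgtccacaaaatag
PCDHA5 (chr5:140821493-140821592): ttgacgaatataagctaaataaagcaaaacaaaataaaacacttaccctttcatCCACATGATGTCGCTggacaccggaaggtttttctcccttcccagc
PCDHB9 (chr5:141187041-141187140): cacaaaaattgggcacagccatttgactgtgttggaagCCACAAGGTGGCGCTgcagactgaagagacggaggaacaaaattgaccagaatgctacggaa
PCDHB10 (chr5:141192233-141192332): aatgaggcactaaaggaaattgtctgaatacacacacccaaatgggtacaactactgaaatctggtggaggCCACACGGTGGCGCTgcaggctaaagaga
PCDHGA10 (chr5:141412867-141412966): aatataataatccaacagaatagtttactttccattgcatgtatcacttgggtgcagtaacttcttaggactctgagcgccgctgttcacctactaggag
PCDHAC1 (chr5:140926179-140926278): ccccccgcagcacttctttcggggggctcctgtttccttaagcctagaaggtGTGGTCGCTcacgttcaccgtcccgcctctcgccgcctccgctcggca
PCDHAC2 (chr5:140966356-140966455): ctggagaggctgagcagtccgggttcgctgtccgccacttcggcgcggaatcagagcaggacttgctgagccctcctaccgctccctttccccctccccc
PCDHGC3 (chr5:141475846-141475945): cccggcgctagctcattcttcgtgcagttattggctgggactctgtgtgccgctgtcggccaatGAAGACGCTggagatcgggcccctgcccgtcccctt

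Of the 9 genes with the long pattern, 8 had a peak in D3 and 4 in E4, against 3 in WT, and PCDHA5 had none in any list. Of the 6 promoters the letters were read from, all but that of PCDHA5 belong to genes with a peak, so the choice of letters largely fixes this count and nothing is read from it. The shorter pattern was present in 16 of the 25 genes with a peak and in 19 of the 22 without, against 22.7% of all RefSeq promoters. A match describes letters in this window and does not mark a bound site. All coordinates from here on are hg19, as in the deposited lists.

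Fewer of the cluster's regions were shared by all populations than in the genome as a whole. Regions were called in all 3 lists at 9 of the 33 places (27.3%; exact 95% interval 13.3 to 45.5), against 53.9% of the regions of the whole genome. Another 9 (27.3%) were called in D3 and WT and not in E4, against 6.62% of all regions. D3 alone called 12 (36.4%, against 26.1%), both clones without WT called 2 (6.06%, against 9.31%), and WT alone called 1 (3.03%, against 2.37%). No region of the cluster was called in E4 alone or in E4 and WT without D3. These kinds are rare in the genome too, at 1.45% and 0.216% of all regions, so their absence here says little. The most frequent kinds here were therefore D3 alone, all 3 lists, and D3 with WT. Intervals on shares cover counting error only, over neighbouring peaks of the same libraries.

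**Figure D1:**
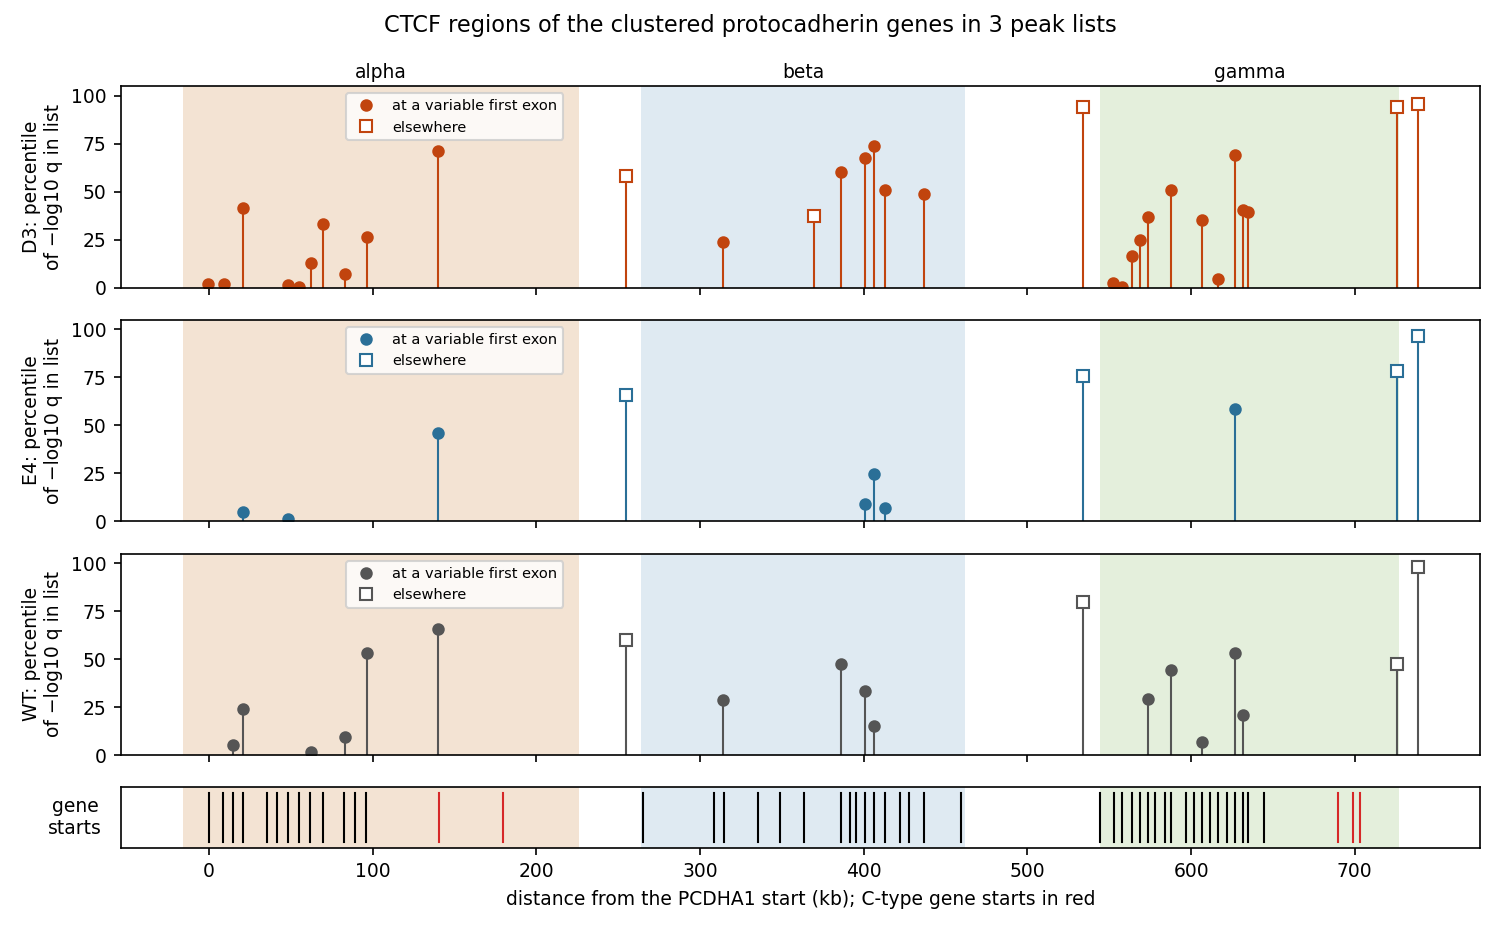
CTCF regions along the cluster, by distance in kb from the PCDHA1 start, with a panel each for D3, E4 and WT; the height is the percentile of the authors' −log10 q within its own list, filled circles are regions at a variable first exon and open squares other regions. D3 has 32 peaks, E4 has 11 and WT has 19, and in E4 the open squares, from the 66.1st to the 96.8th percentile, stand above all filled circles.

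The alpha part, from the window's start to the last alpha constant exon, held 11 regions, the beta part 7 and the gamma part 12. Per 100 kb this was 4.55, 3.54 and 6.56 regions. The remaining 3 regions lay between the alpha constant exons and PCDHB1, between PCDHB15 and PCDHGA1, and past the gamma constant exons. D3 had 10, 7 and 12 peaks in the alpha, beta and gamma parts, E4 had 3, 3 and 2, and WT had 6, 4 and 6. The shares called in all 3 lists were 2 of 11 in alpha, 2 of 7 in beta and 2 of 12 in gamma, and each of the 3 regions outside these parts was called in all 3 lists. With so few regions the intervals of the parts overlap widely, from 2.28% to 51.8% in alpha, 3.67% to 71.0% in beta and 2.09% to 48.4% in gamma.

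Regions lay closest together in gamma and farthest apart in beta, the same order as the gene starts. The median distance between neighbouring region centres was 8.45 kb in alpha, 15.7 kb in beta and 6.19 kb in gamma, where the gene starts had a median spacing of 6.84, 9.11 and 4.99 kb. Over the whole cluster the median was 11.5 kb, against 24.4 kb between regions of the genome, and 15 of 32 gaps were under 10 kb, against 25.2% of all gaps. In the lists taken singly, peaks of D3 were a median of 12.7 kb apart (25.2 kb over its whole list), those of E4 92.3 kb (34.7 kb) and those of WT 20.6 kb (34.2 kb). D3 and WT thus spaced their peaks here more closely than in their whole lists, and E4 more widely. In no list, however, was the cluster denser than both of its neighbouring stretches. WT called 2.50 peaks per 100 kb here, against 2.76 and 3.82 in equally long stretches before and after it. For D3 these densities were 4.21, 3.55 and 5.39, and for E4 1.45, 2.63 and 3.68. The 4 HOX clusters were denser (WT 5.46, D3 6.46, E4 5.30). The 11 non-clustered protocadherin genes were sparser (WT 0.665, D3 1.28, E4 0.718). The largest gap, 114 kb, ran from the region at PCDHAC1 over PCDHAC2 and the alpha constant exons, and gaps of 96.98 and 91.28 kb followed PCDHB14 and PCDHGA11.

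A region counted as being at a variable first exon when it overlapped the stretch from 1 kb before to 3 kb after a gene's start, with hg19 starts written from general knowledge. This held for 28 of the 33 regions, with no share of the genome's regions computed beside it. The gene starts had a median spacing of 4.99 to 9.11 kb by subfamily, and the count was not separated from that density. Region centres lay from -368 to 744 bp relative to the nearest start, and 26 of the 28 were within 500 bp of it. By these starts, all 6 such beta regions and 10 of 11 gamma regions were centred before the start, at a median of -103 and -152 bp. In alpha 3 of 11 were, with a median of 114 bp after the start. The 3 alpha regions farthest downstream were those of PCDHA2, PCDHA9 and PCDHA13, at 744, 714 and 429 bp. Starts can differ between transcript models, and these did not lie at a constant distance from the starts of the printed GRCh38 promoters. Distances this short are therefore approximate, the medians included. Nothing is read from the side of the start on which a centre lay, or from how the subfamilies differ in it.

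**Figure D2:**
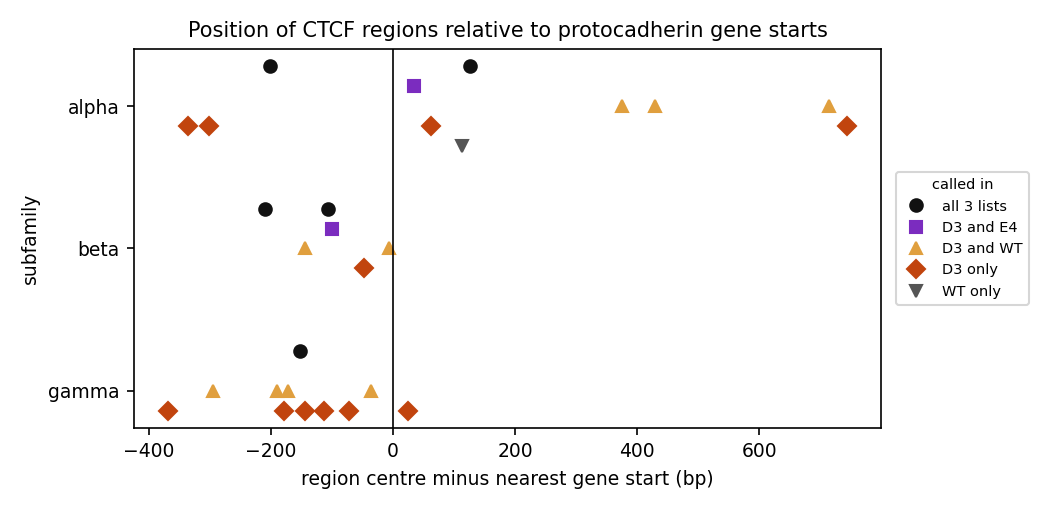
Centre of each of the 28 regions at variable first exons minus the nearest gene start, in bp, by subfamily, with symbols for the lists that called it. Starts are those written from general knowledge and are approximate. Beta and gamma regions gather from -368 to 25 bp around the start, and alpha regions reach to 744 bp after it.

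Regions away from first exons were few. Their percentiles of −log10 q ran from 37.5 to 95.9 in D3, from 66.1 to 96.8 in E4 and from 47.5 to 98.2 in WT. Of these 5 regions, 4 were called in all 3 lists. The strongest, chr5:140903782-140905233, lay past the gamma constant exons, where the next gene in RefSeq order is DIAPH1, which encodes an actin regulator. Its fold enrichment over the peak caller's own background was 14.1 in D3, 15.6 in E4 and 11.5 in WT. Its −log10 q, the caller's significance, stood at the 95.9th, 96.8th and 98.2nd percentile of those lists. Fold and −log10 q are the authors' values and were read within a list, apart from a limit of 5 on −log10 q used further on. By −log10 q it was the highest peak of the cluster in each list. The next, chr5:140891055-140892622, lay at the 3′ end of the gamma cluster near its last constant exon, with 15.8-fold enrichment in D3, 9.04-fold in E4 and 4.53-fold in WT. It stood at the 94.2nd percentile in D3, the 78.4th in E4 and the 47.5th in WT.

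The region chr5:140699256-140700477 lay between PCDHB15 and PCDHGA1, 10.4 kb before the start of PCDHGA1. The gene just before PCDHGA1 in RefSeq order is TAF7, which encodes a subunit of the general transcription factor TFIID. The region was enriched 15.5-fold in D3, 8.16-fold in E4 and 6.56-fold in WT, at the 94.2nd, 75.7th and 79.6th percentile of the 3 lists. The fourth, chr5:140419413-140421358, lay between the alpha constant exons and PCDHB1, in the interval where the alpha enhancer HS5-1 is known to lie. The sources used here give no coordinates of that enhancer, so the region was not matched to it. Its fold was 7.48 in D3, 8.24 in E4 and 6.02 in WT, at the 58.4th, 66.1st and 59.8th percentile. It was the widest region of the cluster, 1946 bp. The fifth, chr5:140535093-140535464, was called in D3 only, with a fold of 5.38 at the 37.5th percentile. It lay 5.60 kb past the start of PCDHB6, in a stretch where RefSeq order has the pseudogene PCDHB17P. That pseudogene is not among the 53 genes, so the region counted as away from first exons by that list.

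Peaks at first exons ranked lower than these in each list. The median −log10 q at first exons was 5.12 in D3 (27 peaks), 2.11 in E4 (7 peaks) and 3.32 in WT (15 peaks), at the median percentiles 33.3, 8.90 and 28.7. Away from first exons it was 37.1 in D3 (5 peaks), 16.1 in E4 (4 peaks) and 8.49 in WT (4 peaks), at the median percentiles 94.2, 77.0 and 69.7. The ranges did not overlap in E4, where first exons reached the 58.5th percentile and the other peaks began at the 66.1st. They overlapped in D3 and in WT.

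Among the alpha genes, PCDHAC1 and PCDHA4 were called in all 3 lists. PCDHAC1, the first C-type gene, had the region chr5:140305515-140306687 at its start, with 8.72-fold enrichment in D3, 6.16-fold in E4 and 6.46-fold in WT, at the 71.2nd, 46.0th and 65.8th percentile. PCDHA4 had chr5:140185917-140187679, with 5.52-fold enrichment in D3 and 3.56-fold in E4, against 4.11-fold in WT, and stood near the bottom of the E4 list, at the 5.08th percentile. It stood at the 41.3rd percentile in D3 and at the 24.1st in WT. Percentiles come from lists of unequal length and show no order between populations, which is given further on for regions ranked at equal length.

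The alpha genes called in WT and not in E4 were PCDHA13, PCDHA11, PCDHA9 and PCDHA3. PCDHA13, the last alpha gene before the C-type genes, had chr5:140261917-140262527 with 3.86-fold enrichment in D3 and 5.70-fold in WT. Its −log10 q of 5.70 in WT, at the 53.4th percentile, was the highest of the WT peaks without a counterpart in E4. The regions of PCDHA11 (chr5:140248720-140249408) and PCDHA9 (chr5:140227659-140228482) had a fold of 3.23 and 3.59 in D3 and of 3.56 and 3.16 in WT. PCDHA3, at chr5:140180759-140181036, was called in WT alone, with a fold of 3.35 at the 5.16th percentile, and was the narrowest region, 278 bp. It was the 1 place in the cluster that D3 lacked.

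At the 5′ end of the alpha cluster PCDHA1 was called in D3 only (chr5:140165226-140165853, fold 3.03, 1.88th percentile). PCDHA2, PCDHA8 and PCDHA10 were likewise called in D3 only, with folds from 2.81 to 5.15. PCDHA7 had a peak in each clone and none in WT, with 2.96-fold enrichment in D3 and 3.27-fold in E4, at the 1.38th and 1.29th percentile. PCDHA5, PCDHA6, PCDHA12 and PCDHAC2 had no peak in any list.

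Of the 6 beta genes with a peak, 5 were PCDHB7 or later in the order. PCDHB9 and PCDHB10 were called in all 3 lists. PCDHB10, at chr5:140571174-140572496, was enriched 9.52-fold in D3, 4.60-fold in E4 and 3.78-fold in WT, at the 73.5th, 24.8th and 15.0th percentile. PCDHB9, at chr5:140566088-140567280, was enriched 8.14-fold in D3, 3.53-fold in E4 and 4.39-fold in WT, at the 67.7th, 8.90th and 33.3rd percentile. These are the promoters printed above with the letters GGTGGCGCT.

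PCDHB7 and PCDHB3 were called in D3 and WT and not in E4. PCDHB7, at chr5:140551747-140552727, was enriched 7.59-fold in D3 and 4.76-fold in WT, and PCDHB3, at chr5:140479816-140480365, had 3.98 in D3 and 4.40 in WT. PCDHB11 had a peak in each clone and none in WT, with 6.75-fold enrichment in D3 and 3.57-fold in E4, and PCDHB14 in D3 only, with 5.99. The other 10 beta genes had no peak in any list. They include PCDHB1 and PCDHB15 at the ends of the cluster, whose nearest peaks in D3 lay 10.6 and 22.3 kb away.

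Among gamma genes PCDHGA10 was the 1 called in all 3 lists. Its region, chr5:140792185-140792998, was enriched 7.54-fold in D3, 7.35-fold in E4 and 5.42-fold in WT, at the 69.2nd, 58.5th and 53.2nd percentile, and it was the highest first-exon peak of E4. PCDHGB2, PCDHGA6, PCDHGA8 and PCDHGB7 were called in D3 and WT and not in E4. Their regions were chr5:140739297-140739729, chr5:140752986-140753729, chr5:140772042-140772648 and chr5:140797015-140797497. The highest of them was PCDHGA6, with 6.08-fold enrichment in D3 and 5.12-fold in WT, at the 51.0th and 44.2nd percentile. The lowest in WT was PCDHGA8, with 4.96-fold enrichment in D3 and 3.42-fold in WT, at the 35.3rd and 6.86th percentile.

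PCDHGA2, PCDHGA3, PCDHGA4, PCDHGA9, PCDHGA11 and PCDHGB1 were called in D3 only, with folds from 2.79 to 4.76. PCDHGA1 at the 5′ end had no peak in any list, and its nearest D3 peak was 7.92 kb away. Of the 12 gamma A genes 8 had a peak in D3 and 1 in E4, against 3 in WT, and of the 7 gamma B genes 3, 0 and 2. The region at PCDHGA11 also reached the window of PCDHGB7 and was counted for the nearer start.

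Of the 5 C-type genes, PCDHAC1 had a peak in each list and the other 4 had none in any. The nearest D3 peaks to PCDHAC2, PCDHGC3, PCDHGC4 and PCDHGC5 were 39.7, 36.3, 27.1 and 23.0 kb away. Counted over all 53 genes, first exons with a peak numbered 27 in D3 (50.9%; 36.8 to 64.9), 7 in E4 (13.2%; 5.48 to 25.3) and 15 in WT (28.3%; 16.8 to 42.3). The share of all gene starts of the genome with a peak in the same window was not computed. The whole lists held 57935, 39434 and 38645 peaks, so these shares alone do not show a trait of these genes. By subfamily D3 reached 10 of 15 alpha, 6 of 16 beta and 11 of 22 gamma genes, E4 reached 3, 3 and 1, and WT reached 6, 4 and 5. Every gene with a peak in E4 had one in D3. Variable exons are paralogues of each other, and how reads that match several copies were handled is not given in the sources used here, so a peak may hold reads from a related exon.

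**Figure D3:**
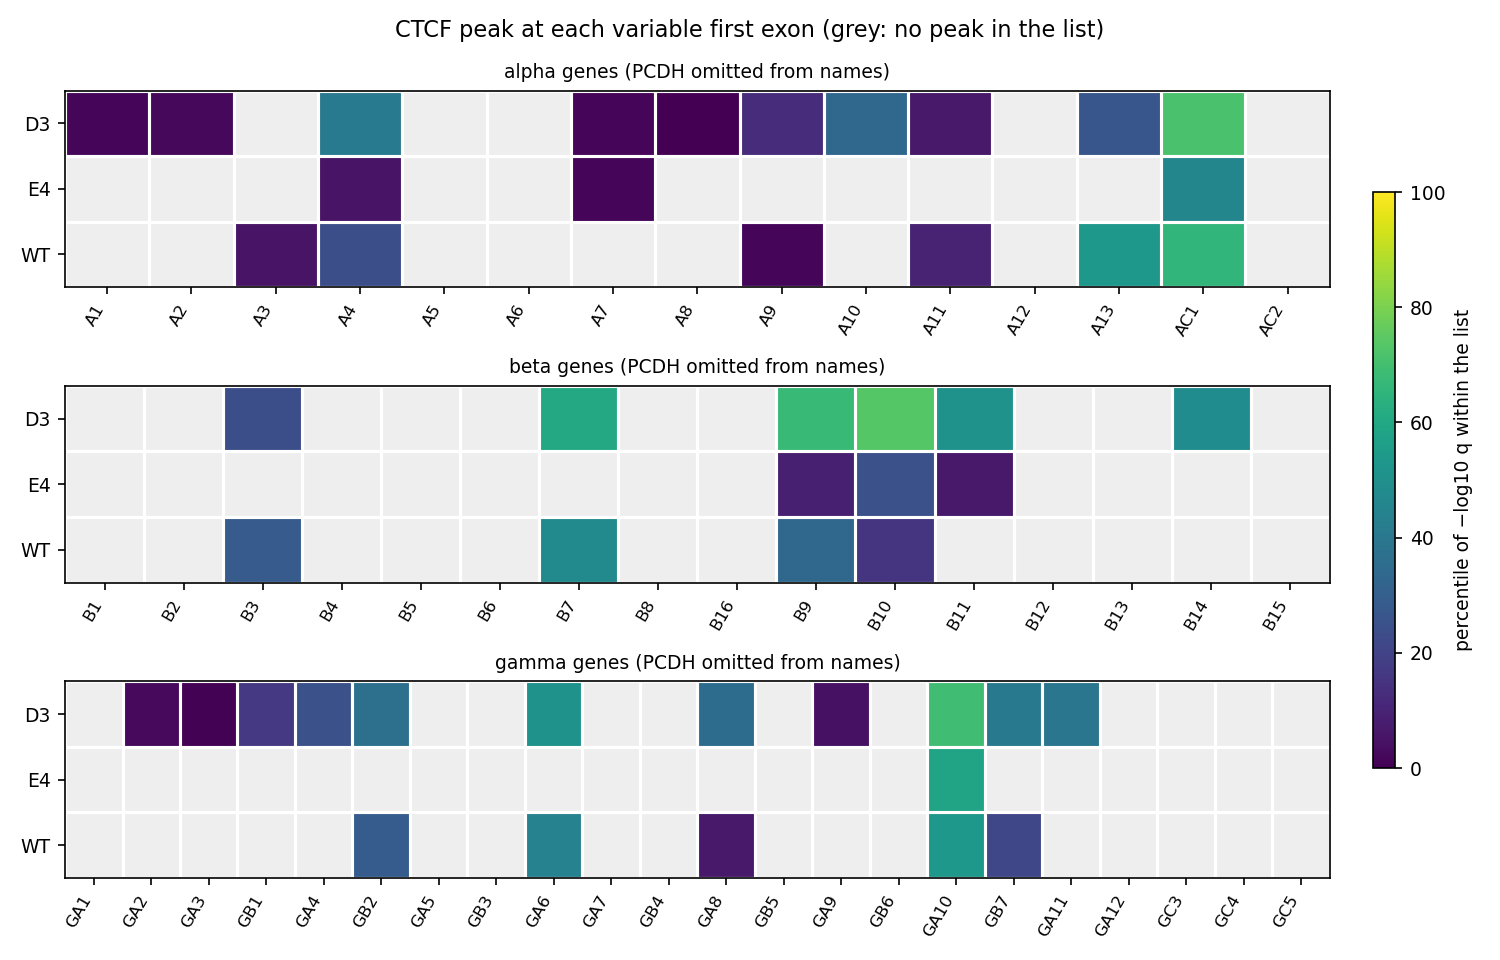
Peak at the first exon of each of the 53 genes in D3, E4 and WT, in genomic order by subfamily; colour is the percentile of −log10 q within the list and grey means no peak. Peaks stand at 27 genes in D3 and 7 in E4, against 15 in WT, and of the C-type genes only AC1 is coloured, in all 3 rows.

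In the full lists, overlap with the WT peaks of the cluster was near the genome's share in D3 and below it in E4. D3 overlapped 18 of 19 (94.7%; 74.0 to 99.9), against 95.9% of all WT peaks. E4 overlapped 9 of 19 (47.4%; 24.4 to 71.1), against 85.7% of all WT peaks. Peaks that D3 overlapped and E4 did not made up 9 of 19, against 10.6% of all WT peaks, and 1 of 19 had no peak in either clone, against 3.69%. At equal list length, 38645 peaks each, D3 was below the genome's share as well, with 73.7% of the 19 against 86.7% by −log10 q and 68.4% against 85.6% by fold, and WT peaks with no peak in either clone numbered 5 and 6. With a −log10 q of at least 5 in each list, E4 overlapped 6 of 8, or 75.0%, against 91.2% of all such WT peaks. In the full lists, of the 15 WT peaks at first exons, D3 shared 14 and E4 shared 5, and away from them each clone overlapped 4 of 4. In the E4 list, therefore, the WT peaks without a counterpart were all at first exons. So were all 7 cluster peaks in the weakest quartile of WT −log10 q, and none of the 4 other peaks was in it. Position was not separated from strength, and the difference was not tested.

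Strength within the WT list was set beside these counts. In the weakest quartile of WT −log10 q, E4 lacked 5 of the 7 cluster peaks, against 41.5% of all WT peaks of that quartile. In the second quartile it lacked 4 of 6 (12.4% of all), in the third 1 of 4 (2.87%) and in the strongest 0 of 2 (0.393%). D3 lacked 1 of 7, 0 of 6, 0 of 4 and 0 of 2, against 15.0%, 1.13%, 0.0932% and 0.0310% of all WT peaks of the 4 quartiles. The share that E4 lacked was thus higher in the cluster than in the list as a whole in the lower 3 quartiles, each time over few peaks of neighbouring places, and was not tested.

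**Figure D4:**
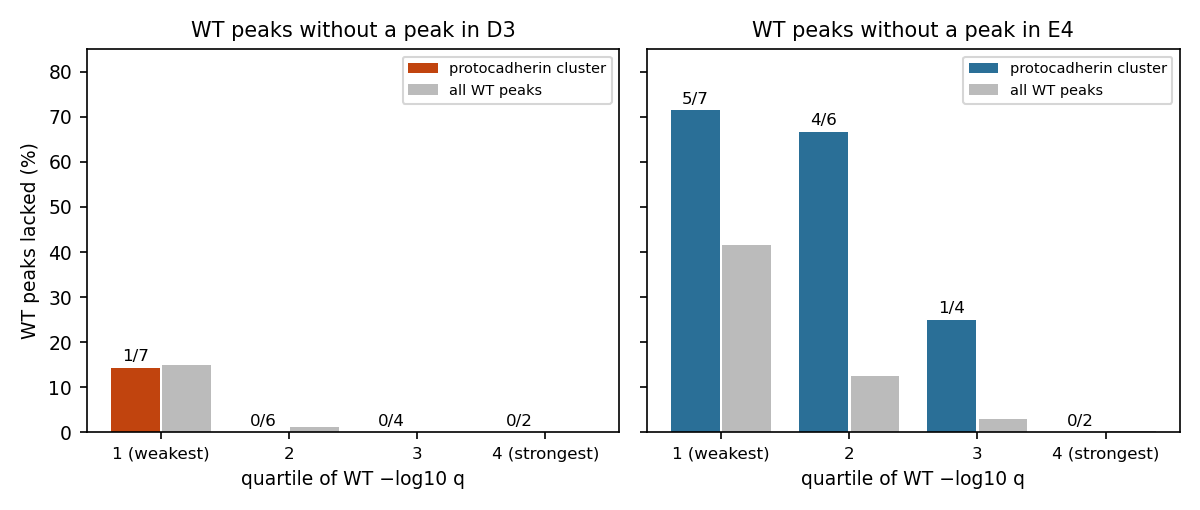
Share of WT peaks without a peak in D3 (left) and in E4 (right), in %, by quartile of WT −log10 q, for the cluster (coloured, with counts) and for all WT peaks (grey). E4 lacks 5 of 7, 4 of 6, 1 of 4 and 0 of 2 cluster peaks from the weakest to the strongest quartile, and D3 lacks 1 of 7 and none of the others.

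Stretches of the same length on either side of the cluster were counted as neighbours. In the stretch before the cluster, of 21 WT peaks, D3 shared 21 and E4 shared 20, and in the stretch after it they overlapped 28 and 26 of 29. At the 4 HOX clusters, other tandem arrays of developmental genes with many CTCF sites, D3 overlapped 30 and E4 29 of 33 WT peaks. The 11 non-clustered protocadherin genes, which code for related adhesion proteins from single loci, had 48 peaks in D3 and 27 in E4, against 25 in WT, of which D3 overlapped 24 and E4 22. The large gene PCDH15 held the most of them in each list, 18 in D3 and 11 in E4, against 11 in WT. In each of these 4 sets taken whole, E4 overlapped at least 87.9% of the WT peaks. Single members were lower, with 8 of 11 at HOXA, 5 of 6 at HOXC, 2 of 3 at PCDH1 and 3 of 4 at PCDH7. The other HOX clusters and genes with a WT peak stood at 90.9% or more. The WT peaks of these sets were not matched to those of the cluster in strength. The first region inside the cluster's window was the one at PCDHA1, and the first outside, 35.7 kb before the edge, was called in D3 only, with a fold of 5.62. After the window the next region lay 27.1 kb past the edge and was called in all 3 lists, with 11.7-fold enrichment in D3, 9.35-fold in E4 and 7.27-fold in WT.

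From the side of the clones, E4 overlapped 11 of the 32 D3 peaks of the cluster (34.4%; 18.6 to 53.2), against 66.0% of all D3 peaks. WT overlapped 18 of 32 (56.2%; 37.7 to 73.6), against 63.1%. By quartile of D3 −log10 q, E4 lacked 11 of 12, 8 of 9, 2 of 8 and 0 of 3, against 81.8%, 44.3%, 9.22% and 0.829% of all D3 peaks. All 11 E4 peaks were overlapped by D3, against 97.5% of all E4 peaks, and 9 of 11 by WT, against 83.4%. Regions called in a clone and not in WT numbered 14 of 33, against 36.8% of all regions. Among these 14 the highest in D3 were PCDHB11, with a −log10 q of 8.89, and PCDHB14, with 8.32.

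Lists of unequal length do not allow counts to be read as binding. D3 had the longest list, and −log10 q values of 5 or more made up 67.5% of it, 65.9% of E4 and 53.0% of WT. Of the cluster's peaks 19 of 32 reached 5 in D3 and 6 of 11 in E4, against 8 of 19 in WT. When each list was held to its 38645 peaks of highest −log10 q, the length of WT, first-exon peaks numbered 14 in D3 and 6 in E4, against 15 in WT, and other peaks 5, 4 and 4. D3 then overlapped 14 of 19 WT peaks of the cluster (86.7% of all WT peaks) and E4 9 of 19 (85.3% of all WT peaks). The number in D3 was no longer above that in WT, and E4 still had the fewest. Among peaks whose −log10 q reached 5, first-exon peaks numbered 14 in D3 and 2 in E4, against 4 in WT.

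**Figure D5:**
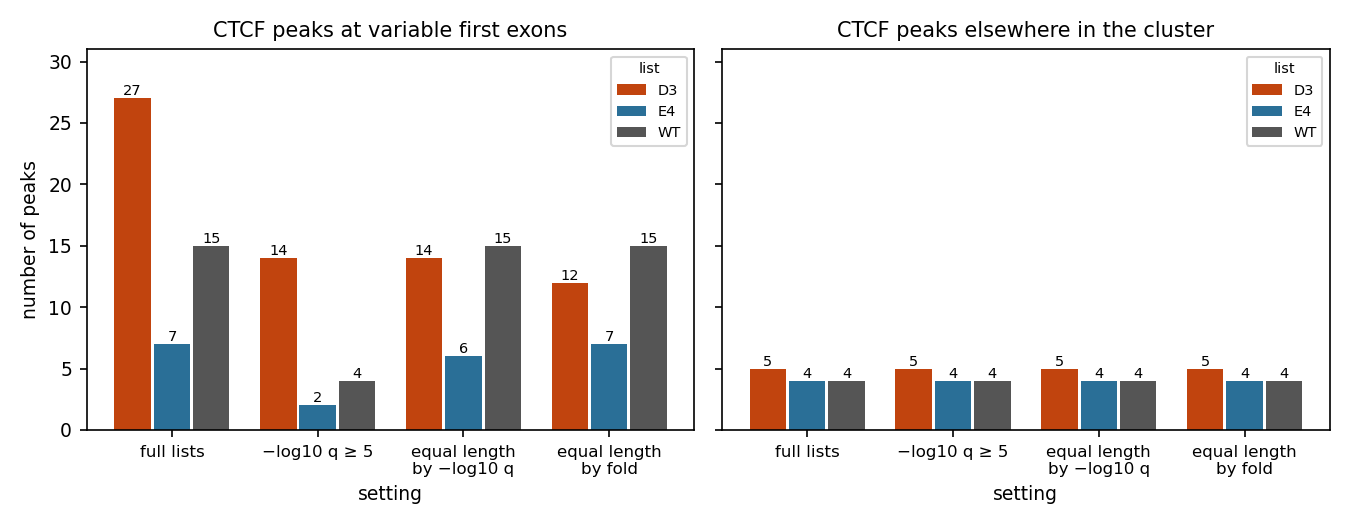
Number of CTCF peaks at variable first exons (left) and elsewhere in the cluster (right) in D3, E4 and WT, for the full lists, peaks whose −log10 q reached 5, and lists of equal length ranked by −log10 q or by fold. At first exons E4 has 2 to 7 peaks under each setting and WT 4 to 15, while elsewhere all lists keep 4 or 5.

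Regions called in all 3 lists were also ranked among the 32495 such regions of the genome, so that the lists had equal length. Over the 9 in the cluster the median difference in rank was 0.385 percentile points between D3 and WT and -1.74 points between E4 and WT, with 5 and 4 of 9 higher in the clone. Several single regions moved by more than these medians. The region at the 3′ end of the gamma cluster ranked at 89.7 in D3 and 73.9 in E4, against 39.4 in WT, so both clones placed it higher. PCDHAC1 ranked at 49.6 in D3 and 35.8 in E4, against 60.1 in WT, so both placed it lower, whereas its percentile in the full D3 list was above that in the WT list. PCDHGA10 lay closer to its WT rank, at 46.1 in D3 and 50.2 in E4, against 45.7 in WT. PCDHB10 ranked at 53.5 in D3 and 14.7 in E4, against 8.41 in WT. PCDHA4 ranked at 10.5 in D3 and 1.62 in E4, against 15.9 in WT, and here too the order of D3 and WT was the reverse of that in the full lists.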

How the data were processed

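Of 6 samples, the 3 CTCF libraries were used. Per the submitters' processing notes, the build was hg19 and MACS2 2.2.7.1, bedtools 2.29.2, Picard 2.23.1 and CASAVA 1.8.2 were used, with no role given. Which aligner and caller settings were chosen, and whether the libraries without antibody served as controls, is not given in the sources used here. Each library has its own broadPeak list, deposited by the authors, so peaks were called per sample. Per the columns deposited, each peak has a fold enrichment (a ratio over the caller's background), −log10 p and −log10 q, and a score, which was not used. These values depend on their own library, whose depth is unknown, and were read within their list. The exception is the limit of 5 on −log10 q, which was set alike in all 3 lists, so counts under it also depend on depth.

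Peaks overlapping by at least 1 bp were merged or counted as shared (Python 3.11.15, pandas 2.3.3, scipy 1.17.1), with code tested on simulated data. A percentile is the share of a list's peaks with a lower −log10 q. Intervals are exact (Clopper-Pearson, 95%). Starts of 53 genes, cluster borders and other gene windows (with 10 kb on either side) were written from general knowledge of hg19; the order of the 53 matched RefSeq. The cluster, the gene lists, the comparisons and the rule for named regions (called in all lists, missing from a clone, the 3 highest per list, and those at cluster ends and C-type genes) were chosen with earlier results of these data known. Lists were also compared at equal length and with other overlap and strength limits.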

Additional observations from a re-analysis of the deposited data

Results flagged for a closer look

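In several counts D3 was above WT and E4 below it. No such difference was tested, since each population had 1 library. Over the whole cluster D3 exceeded E4 by 21 peaks (32 and 11, against 19 in WT). The clones differed by 7 peaks in the alpha part (10 in D3, 3 in E4, 6 in WT), by 4 in the beta part (7, 3 and 4), by 10 in the gamma part (12, 2 and 6) and by 20 at first exons (27, 7 and 15). At equal list length D3 was no longer above WT at first exons, with 14 peaks in D3 and 6 in E4, against 15 in WT. Outside the cluster the order held in some sets and not in others. D3 and E4 differed by 7 peaks in the stretch before it (27, 20 and 21), by 13 in the stretch after it (41, 28 and 29), by 7 over the HOX clusters (39, 32 and 33), by 4 at HOXA (12, 8 and 11), by 2 at PCDH1 (4, 2 and 3) and by 3 at PCDH7 (5, 2 and 4). E4 was not below WT at the other HOX clusters, HOXB (12 in D3, 11 in E4, 10 in WT), HOXC (9, 7 and 6) and HOXD (6 in each), nor over the 11 non-clustered protocadherin genes together (48, 27 and 25), nor at the other 9 of them, among these PCDH15 (18, 11 and 11), PCDH9 (7, 2 and 2), PCDH12 (4, 3 and 2) and PCDH19 (3, 3 and 1).

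Among regions called in all 3 lists, 3 of the cluster had D3 and E4 ranks on opposite sides of WT. PCDHB9 ranked at 43.8 in D3 and 3.47 in E4, against 24.6 in WT, a difference of 40.2 points between the clones. The region between PCDHB15 and PCDHGA1 ranked at 89.7 and 70.6, against 76.1 (19.0 points). The region before PCDHB1 ranked at 29.5 and 59.1, against 53.1 (-29.6 points).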

How the results depend on the processing

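Of 89 alternatives, 61 stayed within 1.5 times the count or within the interval of the share, and 28 moved. No paired analysis was possible because each population has a single library, so none could be left out either. Held to peaks whose −log10 q reached 5, there were 19 (D3), 6 (E4) and 8 (WT) cluster peaks, E4 overlapped 75.0% of those of WT (91.2% over the genome), regions numbered 4 in alpha and 7 in gamma with a median spacing of 20.4 kb, first exons with a peak numbered 14, 2 and 4, and the median percentile in WT was 18.1. At equal length by −log10 q D3 had 19 peaks, overlapped 73.7% of WT peaks (86.7% over the genome) and reached 14 first exons, 5 WT peaks had no peak in either clone, 5 regions were called in a clone and not in WT, and alpha and gamma held 7 regions each. At equal length by fold these were 17 peaks, 68.4% (85.6%), 12 first exons, 6 WT peaks, 5 regions and 6 gamma regions, and E4 overlapped 58.8% of D3 peaks. With 50% coverage 2 WT peaks had none in either clone and 4 regions counted as called in all lists. Genome shares under alternatives were computed only for WT peaks overlapped by D3 or by E4, at equal length and at the limit of 5. The other counts here have none beside them. Drawing the window in by 20 kb took the median percentile in E4 to 24.8. Apart from fewer peaks being left by construction, the cause was not tested. E4 overlapped 47.4% of the WT cluster peaks in 4 of 6 alternatives and 41.2% in the narrower window. The depth is unknown, so a missing weak peak and an unbound site cannot be told apart.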
